A study of Mus musculus with 8 samples.

Results

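Innate pattern receptors and paired myeloid receptors were followed through their transcripts in libraries of cells sorted as antigen-specific CD8 T cells. The sort was for or against FcgRIIB, a receptor that binds the Fc part of IgG and restrains signalling. The genes were taken by symbol: every gene of the table beginning with Clec, Tlr, Nlr, Siglec, Cd209, Cd300, Lilr or Pilr, other than Clec9a, Clec4b1, Tlr3, Tlr11 and Nlrc5. Of 13204 genes, 67 had such a symbol, 5 were left out by name, and 62 remained. The symbols chose them, and the prefixes and the genes left out were set with earlier results of these data known.

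All 8 libraries came from mice that had received 1000000 OT-I T cells, CD8 T cells with a receptor for an ovalbumin peptide, 24 hours before a skin graft that expressed ovalbumin. Spleens were taken on day 14 and pooled by 3, giving 4 pools. From each pool 1000 cells positive for FcgRIIB (the positive group, 4 libraries) and 1000 cells negative for it (the negative group, 4 libraries) were sorted within CD44hi Thy1.1+ CD8+ cells, so libraries with the same replicate number share their mice, and each library stands for 3 pooled animals and not for 1. No group without a graft or without transferred cells was analysed here.

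C-type lectins, the CD209 lectins among them, bind sugars on microbes and on the body's own cells, Toll-like receptors sense microbial lipids, proteins and nucleic acids at the cell surface or in endosomes, and NOD-like receptors act in the cytosol, some as cores of inflammasomes. The CD300, Siglec, leukocyte immunoglobulin-like (Lilr) and paired immunoglobulin-like type 2 (Pilr) receptors come in inhibitory forms, whose tails carry ITIM motifs that recruit phosphatases, and activating forms, which signal through adaptors with ITAM motifs such as the products of Fcer1g and Tyrobp. Most are known from dendritic cells, macrophages, monocytes and granulocytes, and a few, such as gp49B, also from activated T cells.

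In the positive libraries 18 of the 58 receptor genes that could be tested were higher, against 3.03% of all genes tested, and none was lower, against 0.268%. The genes called were lectins, CD209, CD300, Pilr and Siglec receptors. The largest differences were those of Cd209a, a mouse relative of the human DC-SIGN gene, and of Cd209d from the same family. Of the Toll-like and NOD-like receptor genes none passed the test in the fit with the group alone. With the pool in the fit 6 did, where 7.22% of all genes tested were higher. Clec2i, whose product is a ligand and not a pattern receptor, was the only 1 of the 58 genes called lower. That was in the fit with the pool, which called 3.85% of all genes tested lower. In bulk libraries a smaller number of cells of a type and less RNA per cell cannot be told apart, and the libraries do not show which cells held a transcript.

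The promoter windows of the CD209 and Pilr genes are printed because Cd209a and Cd209d had the largest differences and because the Pilr genes include near-identical copies. Windows run from 250 bases before to 50 bases after the start of transcription, and 51 of the 62 genes have one in the RefSeq table of GRCm38.p6. This is a later build than the mm9 named for the deposited values, so the positions belong to the windows and not to the RPKM values. Capitals mark GGAANNGAA on either strand, the letters of an ETS-IRF composite element, which the myeloid factor PU.1 and an IRF partner can bind. All 4 CD209 windows shown lie on the minus strand of chromosome 8, Cd209a at chr8:3748935-3749234, Cd209d at chr8:3878450-3878749, Cd209e at chr8:3854237-3854536 and Cd209b at chr8:3926792-3927091, and each is written 5′ to 3′ along its gene.
Cd209a: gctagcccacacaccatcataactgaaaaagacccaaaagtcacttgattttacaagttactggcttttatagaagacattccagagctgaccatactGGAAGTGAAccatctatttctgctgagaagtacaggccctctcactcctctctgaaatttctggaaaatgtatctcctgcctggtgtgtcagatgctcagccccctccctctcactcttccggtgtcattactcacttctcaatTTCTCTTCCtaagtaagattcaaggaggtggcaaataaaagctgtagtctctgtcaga
Cd209d: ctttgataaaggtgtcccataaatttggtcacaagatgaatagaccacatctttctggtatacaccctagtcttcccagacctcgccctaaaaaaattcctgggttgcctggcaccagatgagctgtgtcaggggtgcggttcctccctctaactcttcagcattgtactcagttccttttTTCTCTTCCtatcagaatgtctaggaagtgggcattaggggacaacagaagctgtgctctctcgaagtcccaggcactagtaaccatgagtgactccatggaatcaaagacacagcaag
Cd209e: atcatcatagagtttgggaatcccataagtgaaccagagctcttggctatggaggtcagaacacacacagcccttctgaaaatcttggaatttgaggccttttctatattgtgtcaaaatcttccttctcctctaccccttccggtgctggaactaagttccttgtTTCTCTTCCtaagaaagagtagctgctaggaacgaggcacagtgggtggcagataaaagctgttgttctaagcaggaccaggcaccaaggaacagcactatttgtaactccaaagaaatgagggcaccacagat
Cd209b: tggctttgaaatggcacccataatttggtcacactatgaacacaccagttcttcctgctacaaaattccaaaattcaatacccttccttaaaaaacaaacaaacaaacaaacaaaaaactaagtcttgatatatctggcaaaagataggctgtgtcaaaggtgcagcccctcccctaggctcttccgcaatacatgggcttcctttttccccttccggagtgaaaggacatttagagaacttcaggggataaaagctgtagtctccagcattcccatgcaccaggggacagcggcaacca

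The windows of Cd209a, Cd209d and Cd209e, the 3 CD209 genes called higher in a fit with or without the pool, all held the run TTCTCTTCC, which is 1 spelling of that motif on the other strand. The windows of Cd209b and Cd209c, called in neither fit, held no GGAANNGAA. TTCTCTTCC was looked for after these windows had been seen, and on either strand it occurs in 1.04% of the 27025 promoters of the table. A match of letters is a description and shows neither binding nor use.

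The Pilr windows lie on the minus strand of chromosome 5 of GRCm38.p6, Pilra at chr5:137836229-137836528, Pilrb1 at chr5:137858000-137858299 and Pilrb2 at chr5:137871709-137872008. They are shown because the inhibitory and the activating members of this pair have nearly the same sequence before their starts.
Pilra: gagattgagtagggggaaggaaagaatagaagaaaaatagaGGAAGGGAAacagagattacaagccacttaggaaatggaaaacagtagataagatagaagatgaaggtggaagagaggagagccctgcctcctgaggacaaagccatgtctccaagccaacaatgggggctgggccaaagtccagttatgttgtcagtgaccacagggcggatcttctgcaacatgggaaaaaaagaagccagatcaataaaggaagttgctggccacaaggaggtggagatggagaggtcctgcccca
Pilrb1: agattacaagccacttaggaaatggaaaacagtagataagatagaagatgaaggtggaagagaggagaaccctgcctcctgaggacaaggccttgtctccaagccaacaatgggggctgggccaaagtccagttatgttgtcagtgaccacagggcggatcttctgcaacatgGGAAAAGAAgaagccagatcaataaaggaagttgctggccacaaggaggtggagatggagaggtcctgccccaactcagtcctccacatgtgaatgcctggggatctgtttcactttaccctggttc
Pilrb2: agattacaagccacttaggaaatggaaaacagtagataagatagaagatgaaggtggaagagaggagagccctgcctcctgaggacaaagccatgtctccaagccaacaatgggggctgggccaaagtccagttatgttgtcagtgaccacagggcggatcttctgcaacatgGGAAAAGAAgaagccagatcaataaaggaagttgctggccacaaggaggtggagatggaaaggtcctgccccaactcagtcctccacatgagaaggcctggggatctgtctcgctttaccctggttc

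Pilrb1 and Pilrb2 had 292 of 300 letters in common (97.3%). Shifted by 54 bases, the windows of Pilra and Pilrb1 had 242 of 246 overlapping letters in common (98.4%). Each of the 3 windows holds 1 match to GGAANNGAA, but the match of Pilra stands at another place than that of Pilrb1 and Pilrb2.

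Over all receptor genes with a window, GGAANNGAA occurred in 14 of 51 (27.5%), against 7.41% of the genes tested that have a window and 8.25% of all promoters of the table. Among the members called higher with or without the pool in the fit it occurred in 9 of 26 (34.6%), and among the others in 5 of 25 (20%). The 9 include the related windows of Pilra, Pilrb1 and Pilrb2 and those of Cd209a, Cd209d and Cd209e. Windows of related genes share sequence and are not separate cases, and none of these shares was compared by a test. The shorter run GAGGAA, the core that PU.1 prefers, occurred in 26 of 51 members (51.0%), 27.1% of genes tested and 28.3% of all promoters. Its share was 53.8% in members called higher and 48.0% in the others. Both motifs contain GGAA, so 1 stretch of a promoter can count for both.

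Depth ran from 3060000 to 22010000 reads, with both groups' replicates 1 and 2 above their replicates 3 and 4. Genes that mark other cells were counted without the receptor genes described here. All 9 of the 9 cDC1 dendritic cell markers measured were higher in the positive libraries, with a sum of 562 to 1140 RPKM against 23.3 to 70.8 RPKM in the negative ones; 2 of the lectin and Toll-like receptor genes left out of the members by name are on that list. Of other dendritic cell markers 5 of 7 were higher (6051 to 7776 against 681 to 1818 RPKM), of red pulp macrophage markers 9 of 10 (1163 to 1788 against 110.0 to 419 RPKM), of marginal zone macrophage markers 2 of 4 (41.1 to 90.0 against 5.43 to 25.7 RPKM) and of monocyte markers 3 of 9 (2043 to 3505 against 1755 to 3397 RPKM). Basophil and mast cell markers were at 63.1 and 203 RPKM in positive replicates 1 and 2, at 1281 and 1062 RPKM in replicates 3 and 4, and at 8.56 to 43.4 RPKM in the negative libraries (3 of 8 higher), with Mcpt8 and Fcer1a each listed at 0 in 1 library. Eosinophil markers had 1 of 3 higher (19.8 to 52.4 against 2.92 to 15.1 RPKM). With the pool in the fit 6 of 9 monocyte, 8 of 8 basophil and mast cell and 2 of 3 eosinophil markers were higher. None was called higher among 6 plasmacytoid dendritic cell (149 to 614 against 154 to 398 RPKM), 8 neutrophil (22.2 to 737 against 229 to 2087 RPKM), 8 B cell (73.9 to 206 against 99.2 to 462 RPKM), 6 natural killer cell (871 to 4283 against 720 to 1096 RPKM) and 4 platelet markers tested (12.6 to 38.7 against 7.18 to 44.6 RPKM), and 1 plasmacytoid and 1 natural killer cell marker were lower. With the pool in the fit 1 natural killer cell marker, Tyrobp, was higher, and 1 neutrophil and 2 B cell markers were lower as well. Tyrobp is also an adaptor gene of the receptors described here. In the natural killer cell sums it accounts for 511, 588, 2473 and 3444 RPKM in positive replicates 1 to 4. In negative replicates 1 to 4 it accounts for 43.5, 267, 99.4 and 336 RPKM, so the sums do not stand for natural killer cells alone. The sums of the other lists were not split by gene. The list of other dendritic cell markers holds Cd74 and H2-Aa, and that of monocytes Ly6c2. A few genes could therefore carry those sums, which need not stand for 1 cell type. The 13 core T cell genes measured summed to 1579 to 3651 RPKM in positive and 4448 to 7065 RPKM in negative libraries, so that every positive library had the lower sum, with 6 of the genes lower once the pool was in the fit and none without it. What part such cells have in the receptor transcripts was not tested.

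The limma fit compared log2(RPKM + 1) between the groups over all 11946 genes that reached 1 RPKM in at least 4 libraries, and a gene was called at a Benjamini-Hochberg adjusted p under 0.05. RPKM is reads per kilobase of exon scaled to depth, and every fold change below is positive minus negative on the log2(RPKM + 1) scale. Of the 62 receptor genes 58 were in the fit, and Tlr9, Nlrc4, Nlrp10 and Nlrp4a were too low. A gene could enter through its high group alone, and without this filter all 62 entered and 18 were again higher. The deposited data hold only genes with 3 RPM or more in at least 4 libraries, as many as each group has. RPM is reads scaled to depth alone. That floor could not be lifted, so the fit without the filter cannot tell whether entry through the high group alone affects these counts. The 18 of 58 called higher compare with 3.03% of all genes tested, and the 0 of 58 called lower with 0.268%; at an unadjusted p under 0.05, limma had 32 higher and 0 lower. The median fold change was 1.36 over the receptor genes and -0.11 over all genes tested. With the pool as a block in the fit, 32 receptor genes were higher (7.22% of all genes tested) and 1 was lower (3.85%). By family the medians were 2.18 for CD300, 2.12 for Clec, 2.04 for Pilr, 1.53 for Lilr, 1.31 for Tlr, 1.20 for CD209, 0.79 for Siglec and 0.10 for Nlr genes. Every positive library lay above every negative library for 19 of 58 receptor genes, against 4.61% of all genes tested, and the reverse held for none, against 4.15%. Leaving out 1 library at a time gave between 10 calls, without negative replicate 3, and 22, without negative replicate 4. Without positive replicate 2 there were 11. Over all genes tested the same 3 fits had 181, 574 and 250 higher. The fits that left out 1 library, here and below, had the group alone and no block. Of the 18 genes called, 9 lost the call in some of them. With the block and all 8 libraries these 9 had limma adjusted p of 1.16e-06 to 0.000893. With each library scaled to the core T cell genes in place of depth, and no block, 33 were higher, and the median of all genes moved from -0.11 to 0.67. Over all 11946 genes this scaling had 978 higher and 2 lower.

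Scaled to a common sum of RPKM, 12 receptor genes were higher, and Clec4a1, Clec7a, Siglech, Siglece, Cd300a and Pilra were not among them (limma adjusted p = 0.0916, 0.0855, 0.0619, 0.198, 0.0663 and 0.152). Over all genes tested 220 were then higher, against 362 without this scaling. With replicates 3 and 4 alone Clec4b2, Clec10a, Clec4a1, Siglech, Siglece, Cd300a and Pilra did not pass, at adjusted p of 0.0614 to 0.391. Siglece and Pilra also missed the threshold without a trend, and Siglech did with a pseudocount of 0.1.

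**Figure D1:**
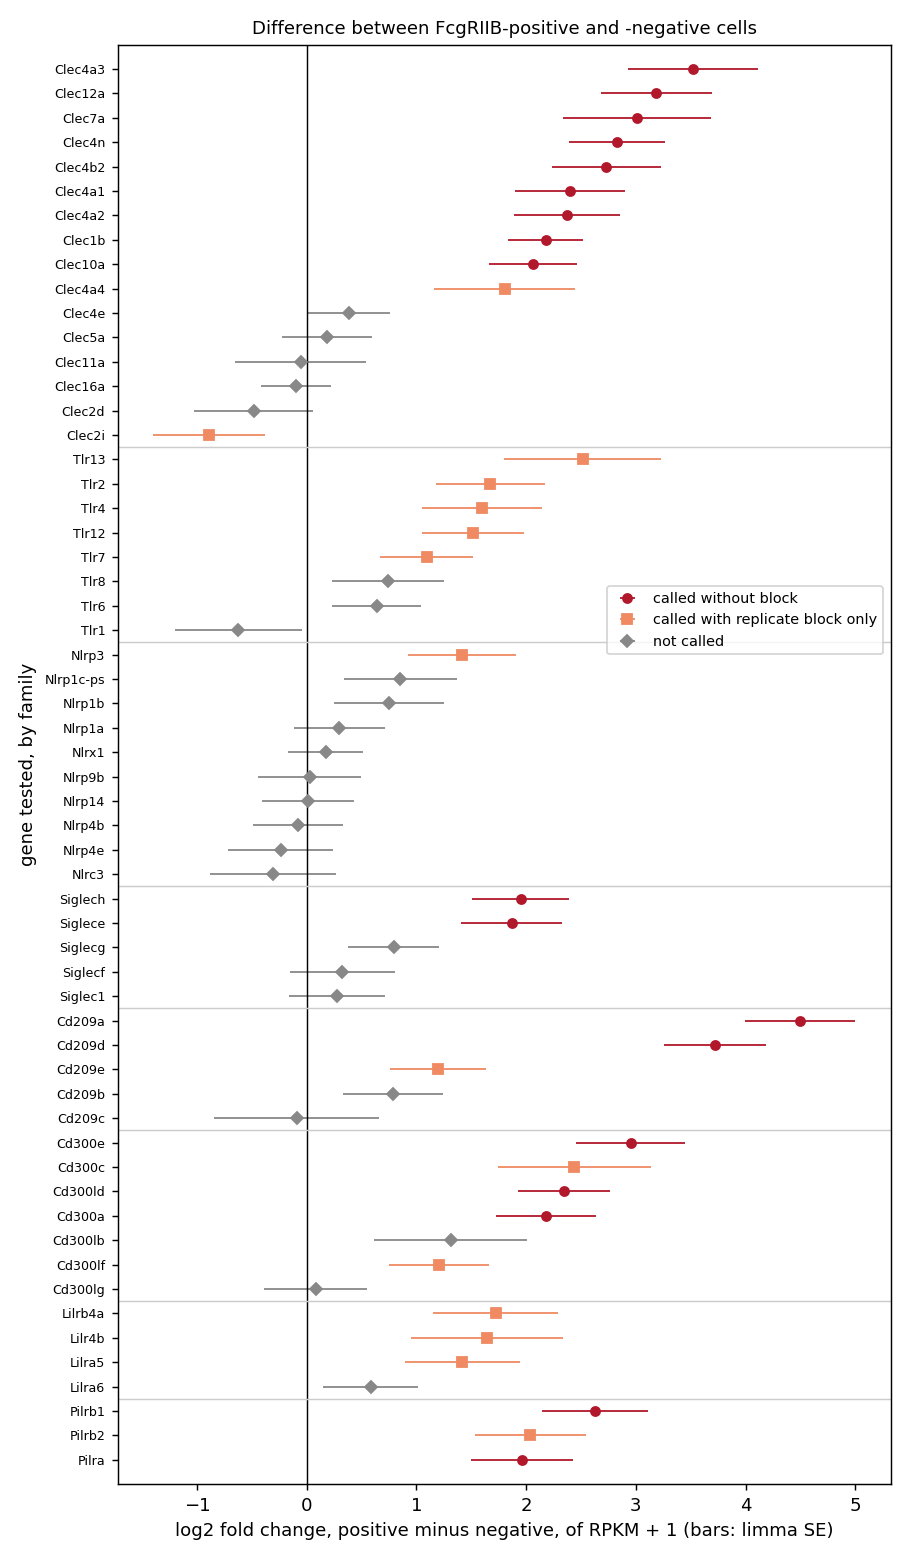
Fold change of the 58 receptor genes tested, by family, as log2 difference of RPKM + 1 between positive and negative libraries (4 each); points are limma estimates, bars 1 standard error, and colour and shape show whether the gene was called without the block, with the block only, or in neither of these 2 fits. The 18 genes called without the block lie between 1.87 and 4.50, and only Clec2i was called below 0.

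Cd209a (Entrez 170786), a lectin gene known from dendritic cells, had the largest difference. It was at 93.96, 141, 38.3 and 88.2 RPKM in the positive libraries, in the order of replicates 1 to 4, and at 0.576, 2.71, 3.12 and 6.57 RPKM in the negative ones. Every positive library was far above every negative one, and the lowest positive value was that of replicate 3. Its means were 90.4 ± 42.1 and 3.24 ± 2.48 RPKM (SD, n = 4 each), a difference of 4.50 (SE 0.50, limma adjusted p = 0.000651) in log2 units. Cd209d (Entrez 170779), which encodes SIGN-R3, stood at 18.8, 23.6, 29.4 and 47.1 RPKM in the positive libraries, replicates 1 to 4, and at 0.065, 0.479, 2.36 and 3.41 RPKM in the negative ones. Here the highest positive values were in replicates 3 and 4, and the groups did not overlap. The fold change of Cd209d was 3.72 (SE 0.47, limma adjusted p = 0.00103). Both genes were called in all 8 fits that left out 1 library.

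The other CD209 genes did not follow to the same extent. Cd209e was at 4.90, 6.67, 2.69 and 3.19 RPKM in positive and 0.597, 0.932, 0.614 and 4.06 RPKM in negative libraries. Negative replicate 4 lay above positive replicates 3 and 4, and its fold change was 1.20 (SE 0.44, limma adjusted p = 0.238 without the block and 0.0338 with it). Cd209b, which encodes SIGN-R1 of marginal zone macrophages, was at 3.03, 4.89, 5.31 and 3.44 against 0.482, 0.934, 3.000 and 5.50 RPKM, with overlapping groups and no call. Cd209c was one of the 3 most abundant receptor genes called in neither fit. It was at 19.2, 6.21, 39.9 and 33.3 RPKM in positive and at 6.79, 9.13, 37.3 and 86.1 RPKM in negative libraries, with its highest value in negative replicate 4. Within each group replicates 3 and 4 exceeded replicates 1 and 2. Its fold change of -0.09 (SE 0.75, limma adjusted p = 0.99999) turned to 0.56 without negative replicate 4 and to 0.80 with libraries scaled to the core T cell genes.

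Among the C-type lectins outside the CD209 group, 9 of 16 were higher, at a median fold change of 2.12 over all 16. Clec4n, the gene of Dectin-2, which binds fungal mannans, was at 50.9, 64.4, 40.5 and 41.4 RPKM in the positive libraries and 2.35, 14.6, 6.98 and 4.66 RPKM in the negative ones. The positive values lay close together and well above the negative ones. Clec4n differed by 2.83 (SE 0.44, limma adjusted p = 0.00382). Clec7a, the gene of the beta-glucan receptor Dectin-1, was at 47.5, 68.7, 13.04 and 25.8 RPKM against 0.637, 15.4, 1.61 and 3.31 RPKM. Positive replicate 3 fell below negative replicate 2, so the groups overlapped, although the positive library was higher in all 4 pools. The fold change of Clec7a was 3.01 (SE 0.67, limma adjusted p = 0.0304). Its call was lost in 5 of the 8 fits that left out 1 library, at an adjusted p of up to 0.124 without negative replicate 3.

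The inhibitory lectin gene Clec12a, whose product senses uric acid crystals of dead cells, was at 61.8, 69.6, 72.7 and 46.5 RPKM in positive and 3.28, 19.9, 2.32 and 6.63 RPKM in negative libraries. Negative replicate 2 was the highest negative library and still lay below all positive ones. Clec12a differed by 3.18 (SE 0.51, limma adjusted p = 0.00429). Clec1b, the gene of the podoplanin receptor CLEC-2, was at 13.1, 18.3, 23.2 and 15.9 against 1.59, 3.36, 2.50 and 5.71 RPKM and did not overlap. Clec1b differed by 2.18 (SE 0.34, limma adjusted p = 0.00420). CLEC-2 is best known from platelets, whose 4 other markers tested gave no call. Clec10a, a receptor for galactose and N-acetylgalactosamine, was low throughout, at 3.26, 5.41, 6.96 and 4.27 RPKM against 0, 0.038, 0.396 and 1.59 RPKM. In the negative libraries this rested on 0, 2, 9 and 15 reads. The groups stayed apart, and the fold change was 2.06 (SE 0.40, limma adjusted p = 0.0142), with the call lost without positive replicate 2 (adjusted p = 0.0539).

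Of the 7 Clec4 genes, which include Clec4n and a group of dendritic cell immunoreceptors (DCIR) with near-identical copies, 5 were higher, and 6 were with the block. Reads of such copies could be split between them in counting, so the values of single Clec4a and Clec4b genes are uncertain. Clec4a3 was at 69.7, 72.5, 51.8 and 61.7 RPKM in positive and 1.78, 21.7, 1.48 and 5.34 RPKM in negative libraries. The positive libraries kept within a narrow band, and negative replicate 2 stood out among the negative ones. Its fold change was 3.52 (SE 0.59, limma adjusted p = 0.00600). Clec4b2 was at 12.7, 14.5, 21.9 and 6.31 against 0.160, 1.13, 0.391 and 4.39 RPKM, and positive replicate 4 was the lowest positive library. Clec4b2 differed by 2.73 (SE 0.50, limma adjusted p = 0.00966).

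Clec4a2, the gene of the ITIM-bearing receptor DCIR1, was at 13.7, 13.7, 11.3 and 20.05 RPKM in the positive and 0.768, 5.59, 0.336 and 4.05 RPKM in the negative group. All positive libraries exceeded all negative ones, and the fold change was 2.37 (SE 0.48, limma adjusted p = 0.0181). That call was lost without negative replicate 1 or 3, at an adjusted p of up to 0.0657. Clec4a1 was at 32.9, 31.5, 7.64 and 13.4 RPKM against 1.55, 5.22, 1.14 and 4.23 RPKM. Positive replicates 1 and 2 stood well above positive replicates 3 and 4, and these above every negative library. Clec4a1 differed by 2.40 (SE 0.50, limma adjusted p = 0.0198), a call lost without negative replicate 1 or 3 or positive replicate 1 or 2 (adjusted p up to 0.0881). Clec4a4, the gene of the inhibitory receptor DCIR2, was at 10.6, 7.73, 10.3 and 14.6 RPKM in positive and 0, 4.86, 0.700 and 10.96 RPKM in negative libraries, listed at 0 in negative replicate 1. Negative replicate 4 was above 3 of the positive libraries, and the fold change was 1.81 (SE 0.64, limma adjusted p = 0.222 without the block and 0.00379 with it). Clec4e, the gene of Mincle, was called in neither fit, with a fold change of 0.38 (SE 0.37).

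**Figure D2:**
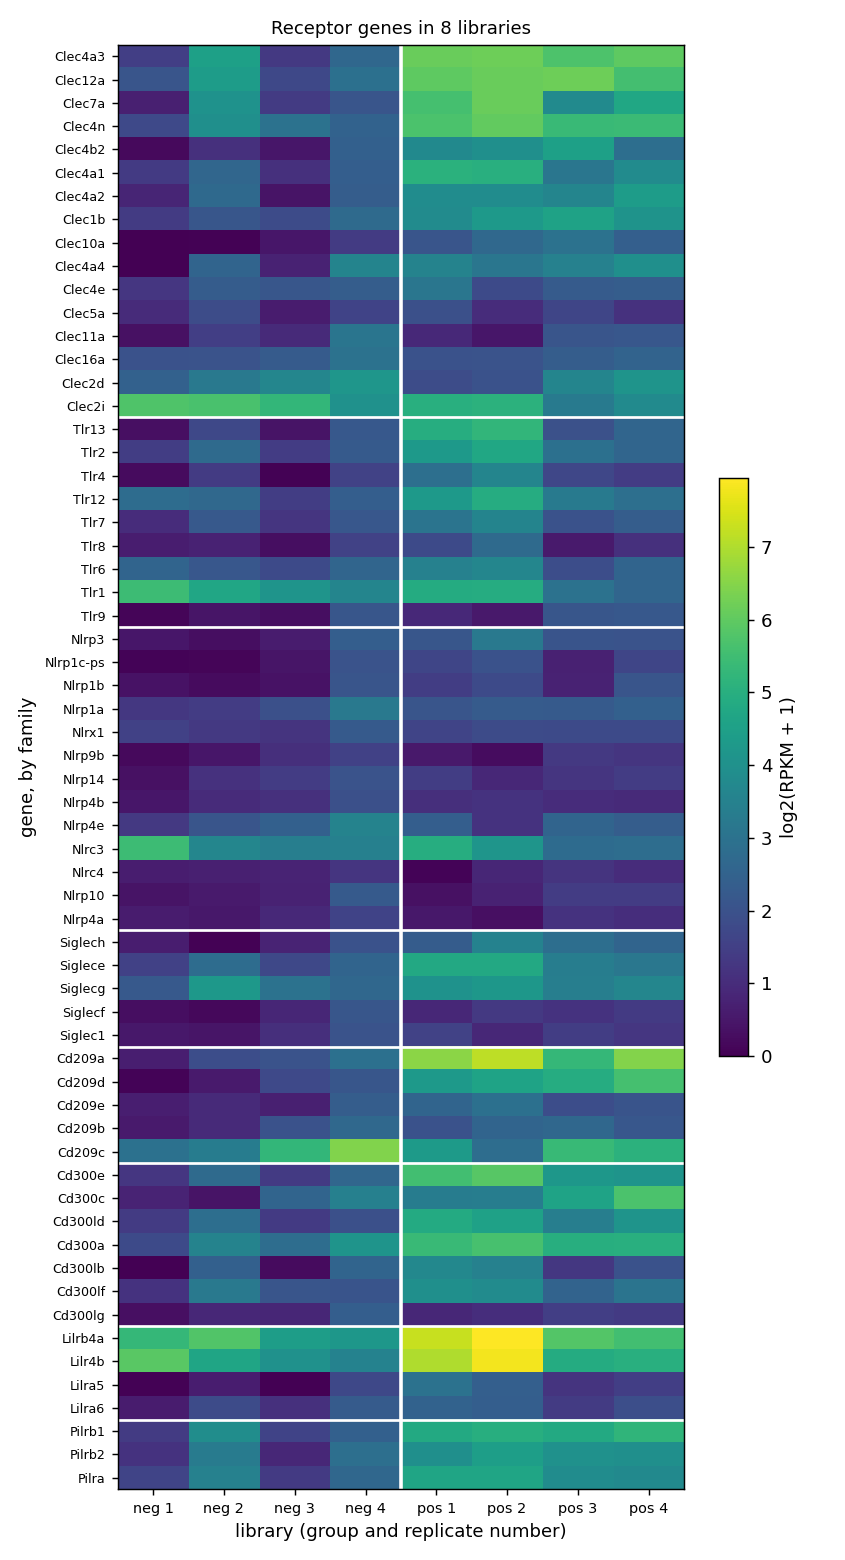
Level of all 62 receptor genes in each library as log2(RPKM + 1), with genes grouped by family, negative libraries on the left and positive libraries on the right. Cd209a, Clec4a3, Clec12a and Clec4n are bright across the positive libraries, whereas most NOD-like receptor genes are dark in both groups.

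A lectin gene was called lower with the block, as were 3.85% of all genes tested. Clec2i, which encodes Clr-g, a lectin-like ligand of natural killer receptors that activated lymphocytes can carry, was at 31.2, 33.8, 8.42 and 12.98 RPKM in positive and at 53.3, 49.9, 37.5 and 15.3 RPKM in negative libraries. The negative library was the higher one in all 4 pools, while the groups overlapped. The fold change was -0.89 (SE 0.51, limma adjusted p = 0.593 without the block and 0.0355 with it). Scaled to the core T cell genes instead of to depth, it was 0.04. Clec2d, which encodes Clr-b, a ligand of an inhibitory natural killer receptor, was also lower in all 4 pools, at 2.60, 2.99, 11.4 and 16.3 against 4.50, 8.35, 11.5 and 17.2 RPKM, but passed in neither fit (fold change -0.48, SE 0.54, limma adjusted p = 0.906, and 0.332 with the block). Rescaled to the core T cell genes it differed by 0.35. The remaining lectin genes, Clec5a, Clec11a and Clec16a, had fold changes between -0.10 and 0.19 and no call.

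Of the 7 CD300 genes 3 were higher, and 5 were with the block. Cd300e, an activating receptor of monocytes, was at 45.9, 57.8, 17.6 and 16.3 RPKM in the positive libraries and 1.37, 5.66, 1.53 and 5.20 RPKM in negative ones. Positive replicates 1 and 2 were the highest, and the groups did not overlap. Cd300e differed by 2.95 (SE 0.50, limma adjusted p = 0.00615). Cd300ld was at 27.8, 22.3, 9.59 and 16.2 RPKM against 1.58, 6.27, 1.56 and 2.82 RPKM, also without overlap, and its fold change was 2.34 (SE 0.42, limma adjusted p = 0.00839). Cd300a, the inhibitory member that binds lipids exposed on dying cells, was at 41.2, 48.9, 30.7 and 31.1 RPKM in positive and 2.47, 10.8, 6.12 and 16.5 RPKM in negative libraries. The groups did not overlap, with negative replicate 4 the highest negative library. Its fold change of 2.18 (SE 0.46, limma adjusted p = 0.0208) lost the call without negative replicate 3 or positive replicate 1 or 2 (adjusted p up to 0.0887).

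Cd300c and Cd300lf were called with the block and not in the fit with the group alone. Cd300c was at 9.19, 9.26, 23.3 and 50.98 RPKM in the positive libraries and 0.729, 0.344, 4.94 and 10.00 RPKM in the negative ones. Replicates 3 and 4 were the higher ones in both groups, so that negative replicate 4 passed positive replicates 1 and 2, yet in each pool the positive library was above its partner. The fold change of Cd300c was 2.44 (SE 0.70, limma adjusted p = 0.103 without the block and 9.31e-07 with it). Cd300lf, an inhibitory receptor known as the entry receptor of mouse norovirus, was at 14.7, 13.2, 4.72 and 7.39 against 1.26, 8.23, 3.25 and 3.21 RPKM. Negative replicate 2 reached into the positive range, and the fold change was 1.21 (SE 0.45, limma adjusted p = 0.263 without the block and 0.0220 with it). Cd300lb differed by 1.31 (SE 0.70) and Cd300lg, known from endothelium, by 0.08 (SE 0.47), neither called.

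All 3 Pilr genes had every positive library above every negative one. Reads of Pilrb1 and Pilrb2 could be shared between these copies, which makes the split between them uncertain. Pilra, the inhibitory member, was at 24.5, 24.3, 13.5 and 12.7 RPKM in positive and 2.06, 10.4, 1.55 and 5.32 RPKM in negative libraries. Negative replicate 2 came nearest to the positive libraries. Its fold change was 1.96 (SE 0.46, limma adjusted p = 0.0405), and the call was lost without negative replicate 1 or 3 or positive replicate 1 or 2 (adjusted p up to 0.150). Pilrb1, an activating member that pairs with the adaptor encoded by Tyrobp, was at 27.2, 30.4, 27.7 and 35.95 RPKM against 1.60, 13.9, 2.05 and 4.46 RPKM. The positive libraries differed little among themselves, the negative ones by several times. Pilrb1 differed by 2.63 (SE 0.48, limma adjusted p = 0.00980). Its call was lost without negative replicate 3 (adjusted p = 0.0512). Pilrb2 was at 14.4, 20.7, 15.2 and 14.7 RPKM in positive and 1.23, 8.84, 0.827 and 6.52 RPKM in negative libraries, with positive replicate 2 apart from the other positive ones, and had a fold change of 2.04 (SE 0.51, limma adjusted p = 0.0507 without the block and 0.000131 with it). Inhibitory and activating members were therefore both higher, and which of them differed more was not tested.

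Of the 4 Lilr genes none was called without the block and 3 were with it, and 2 of them had the highest mean RPKM of all receptor genes. Lilrb4a, which encodes gp49B, an inhibitory receptor of mast cells and myeloid cells that activated T cells also make, was at 156, 246, 55.2 and 45.2 RPKM in the positive libraries and at 37.9, 53.8, 20.3 and 17.6 RPKM in negative ones. Both groups were higher in replicates 1 and 2, and negative replicate 2 passed positive replicate 4. The fold change was 1.72 (SE 0.57, limma adjusted p = 0.174 without the block and 1.68e-05 with it). Lilr4b, the near-identical neighbour for gp49A, which may share its reads, was at 127, 221, 28.95 and 31.5 against 58.9, 24.8, 15.3 and 10.5 RPKM, and in each pool the positive library was higher. Its fold change was 1.64 (SE 0.69, limma adjusted p = 0.346 without the block and 0.000384 with it). Lilr4b and Tlr7 lie outside the 30 genes that the rule named and were added after their values had been seen. Together Lilrb4a and Lilr4b made up 22.8%, 29.8%, 11.4% and 9.16% of the summed RPKM of all 62 receptor genes in positive replicates 1 to 4, and 31.4%, 18.6%, 14.7% and 6.63% in negative replicates 1 to 4. These shares covered similar ranges in both groups. The sums themselves were 1239, 1565, 736 and 836 RPKM in positive and 308, 422, 243 and 424 RPKM in negative libraries.

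Lilra5, an activating member, was low, at 7.05, 4.26, 1.31 and 1.79 RPKM in positive and 0.027, 0.559, 0 and 2.33 RPKM in negative libraries, and listed at 0 in negative replicate 3. Negative replicate 4 exceeded positive replicates 3 and 4. The fold change of Lilra5 was 1.42 (SE 0.52, limma adjusted p = 0.247 without the block and 0.0237 with it), and Lilra6, at 0.58 (SE 0.43), was not called.

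**Figure D3:**
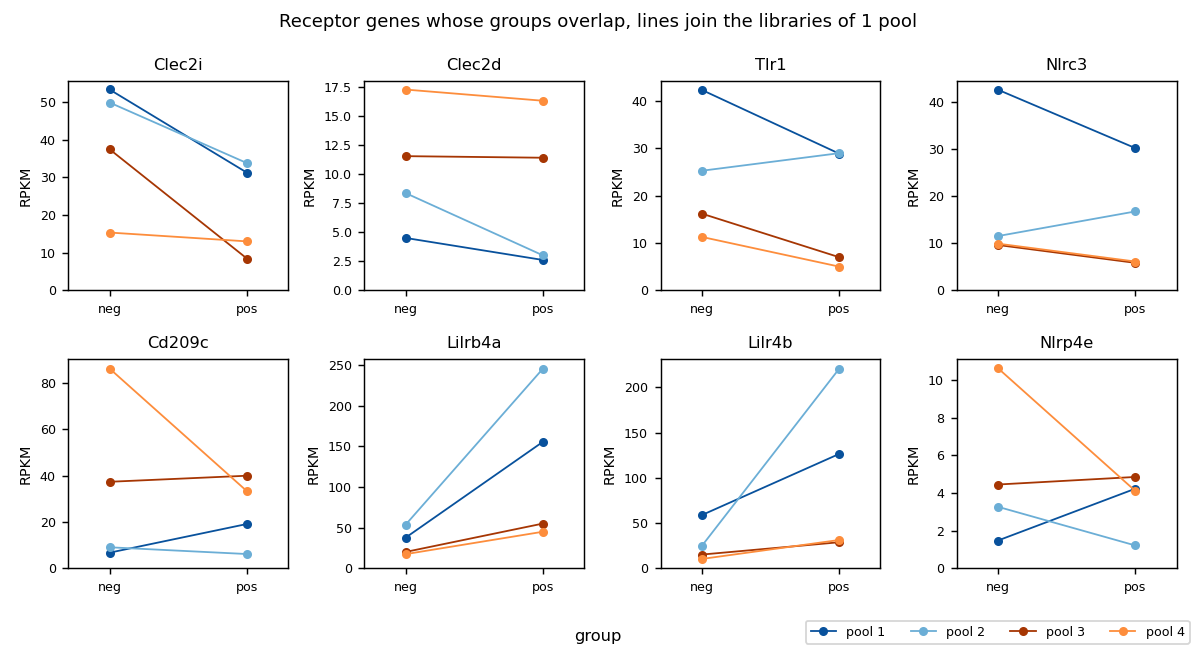
RPKM of 8 receptor genes whose groups overlap, with negative libraries at the left and positive libraries at the right of each panel and a line for each pool; all axes start at 0 and differ between panels. Clec2i and Clec2d have the lower value on the positive side in all 4 pools, Lilrb4a and Lilr4b the higher one, and Cd209c and Nlrp4e peak in negative replicate 4.

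Of the 5 Siglec genes, whose products bind sialic acids, 2 were higher. Siglech, the gene of a receptor best known from plasmacytoid dendritic cells, was at 3.98, 10.4, 6.38 and 4.88 RPKM in positive and 0.557, 0.037, 0.721 and 2.96 RPKM in negative libraries. The groups did not overlap, at 83 to 732 reads in positive and 2 to 32 reads in negative libraries. The fold change was 1.95 (SE 0.44, limma adjusted p = 0.0320), and the call held in 2 of the 8 fits that left out 1 library (adjusted p up to 0.119). Of the 6 other plasmacytoid dendritic cell markers tested none was called higher. Siglece, an inhibitory receptor of myeloid cells, was at 26.9, 26.6, 9.39 and 7.84 RPKM against 1.90, 6.03, 2.28 and 4.96 RPKM, with the top values in positive replicates 1 and 2. It differed by 1.87 (SE 0.46, limma adjusted p = 0.0481), and its call also held in 2 of 8 such fits (adjusted p up to 0.174 without negative replicate 3). Siglecg, an inhibitory receptor of B cells, Siglecf, a marker of eosinophils, and Siglec1, a marker of macrophages at the marginal zone, had fold changes of 0.79, 0.33 and 0.27 and no call.

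Toll-like receptor genes were higher in 5 of 8 cases with the block and in none in the fit with the group alone. The same 5, Tlr2, Tlr4, Tlr7, Tlr12 and Tlr13, were also called without a block when libraries were scaled to the core T cell genes (limma adjusted p of 0.0127 to 0.0403). Those core genes had the lower sum in every positive library, so the scaling itself raised the positive side. It had 978 of all 11946 genes higher and 2 lower, against 362 and 32 without it, and is no separate support for the 5. Tlr13, an endosomal receptor for bacterial ribosomal RNA, was at 29.6, 36.8, 2.95 and 4.97 RPKM in the positive libraries and 0.264, 2.31, 0.338 and 3.59 RPKM in negative ones. Positive replicates 1 and 2 stood far above all other libraries, and positive replicate 3 lay below negative replicate 4. The fold change of Tlr13 was 2.51 (SE 0.72, limma adjusted p = 0.103 without the block and 0.000447 with it). Tlr2, the receptor for bacterial lipopeptides, was at 18.7, 25.4, 6.67 and 5.08 RPKM against 1.72, 5.76, 1.67 and 3.78 RPKM. Here too the excess of replicates 1 and 2 was the larger one, and negative replicate 2 passed positive replicate 4. Tlr2 differed by 1.67 (SE 0.50, limma adjusted p = 0.120 without the block and 0.00130 with it).

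Tlr12, an endosomal receptor for profilin of protozoa, was at 18.5, 29.3, 8.76 and 6.41 RPKM in positive and 6.001, 5.40, 1.71 and 4.23 RPKM in negative libraries. It was the only Toll-like receptor gene whose groups stayed apart, and the fold change was 1.52 (SE 0.47, limma adjusted p = 0.136 without the block and 0.00104 with it). Tlr4, the lipopolysaccharide receptor, was at 6.41, 11.3, 2.20 and 1.67 RPKM against 0.174, 1.58, 0.035 and 1.96 RPKM. In pool 4 the negative library was the higher one. Tlr4 differed by 1.60 (SE 0.55, limma adjusted p = 0.198 without the block and 0.00732 with it). Tlr7, which senses single-stranded RNA in endosomes, was at 7.26, 11.1, 3.05 and 4.06 against 1.02, 3.64, 1.35 and 3.49 RPKM, higher in all 4 pools, with a fold change of 1.09 (SE 0.42, limma adjusted p = 0.285 without the block and 0.0323 with it). Of the genes of surface receptors 2 of 4 and of endosomal ones 3 of 4 were called with the block.

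Tlr1, the gene of the partner of TLR2 for triacylated lipopeptides, was called in neither fit and was at 28.9, 28.96, 6.99 and 4.996 RPKM in positive and 42.3, 25.2, 16.2 and 11.3 RPKM in negative libraries. The positive library was the lower one in 3 of 4 pools. Its fold change was -0.62 (SE 0.58, limma adjusted p = 0.842), which became 0.28 when libraries were scaled to the core T cell genes. Whether Tlr1 and Tlr2 differ in their change was not tested. Tlr6, the other partner of TLR2, differed by 0.64 (SE 0.41) and Tlr8 by 0.74 (SE 0.51), neither called. Tlr9, the receptor for unmethylated DNA, was too low to test, at 0.892, 0.458, 3.32 and 3.53 against 0.080, 0.374, 0.235 and 3.39 RPKM.

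**Figure D4:**
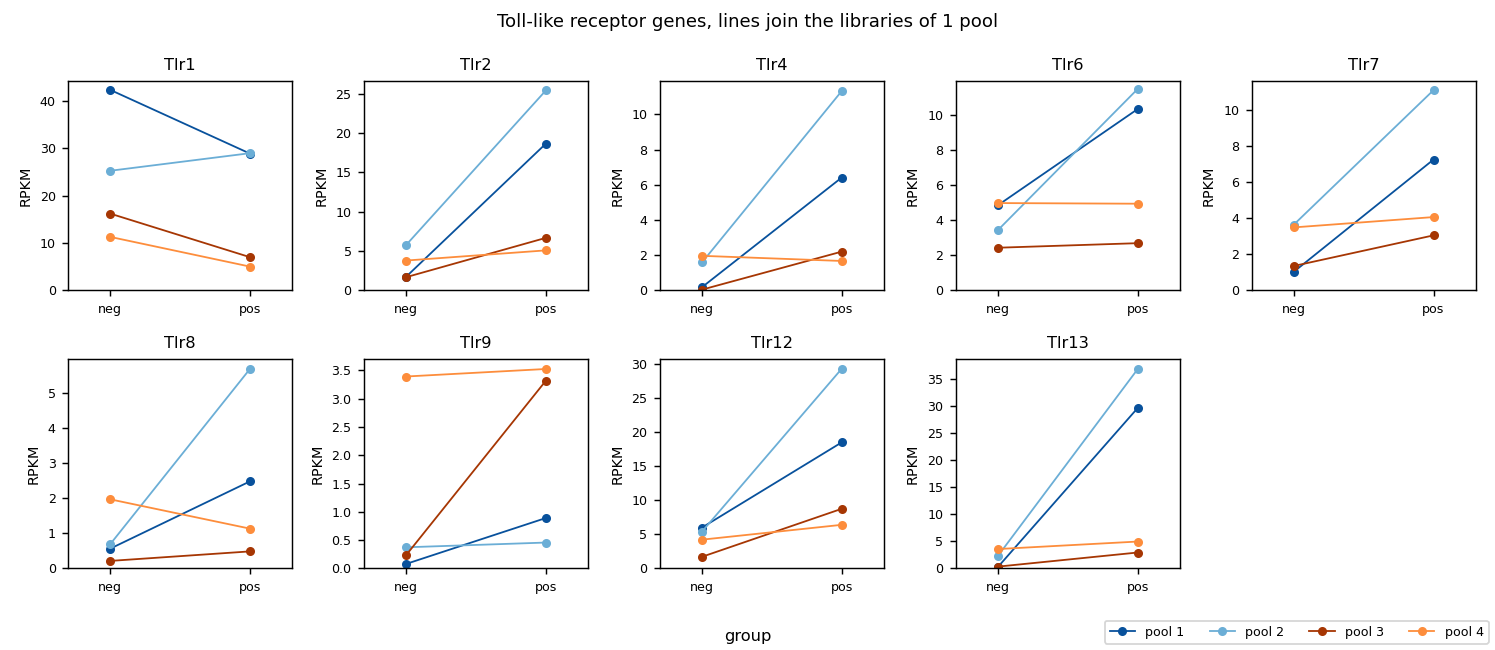
RPKM of the 9 Toll-like receptor genes, with negative libraries at the left and positive libraries at the right of each panel and a line for each pool; axes start at 0 and differ between panels. Tlr2, Tlr4, Tlr7, Tlr12 and Tlr13 rise more steeply in pools 1 and 2 than in pools 3 and 4, and Tlr1 is lower on the positive side in 3 of 4 pools.

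NOD-like receptor genes had the lowest median fold change of the 8 families, 10 of them being tested. With the block 1 of the 10 was higher (10%, against 7.22% of all genes tested). Nlrp3, the sensor of the best-studied inflammasome, was at 3.39, 8.19, 3.19 and 3.12 RPKM in positive and 0.408, 0.230, 0.530 and 4.23 RPKM in negative libraries. Positive replicate 2 and negative replicate 4 stood apart from their groups, and the latter passed 3 positive libraries. The fold change was 1.41 (SE 0.49, limma adjusted p = 0.210 without the block and 0.0216 with it), and no other NOD-like receptor gene was called in either fit. With core T cell scaling and no block Nlrp3 had an adjusted p of 0.0417. Nlrc3, which restrains innate signalling and is known from T cells, was the most abundant of them. Its values were 30.2, 16.7, 5.82 and 6.10 RPKM in positive and 42.6, 11.5, 9.61 and 9.90 RPKM in negative libraries, with replicate 1 the highest in each group. It differed by -0.31 (SE 0.57, limma adjusted p = 0.982), which became 0.18 without negative replicate 1 and 0.58 with core T cell scaling. The Nlrp1 genes, whose near-identical copies Nlrp1a, Nlrp1b and the pseudogene Nlrp1c-ps may share reads, differed by 0.30, 0.75 and 0.85, and the mitochondrial Nlrx1 by 0.17, none called.

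Nlrp4b, Nlrp4e, Nlrp9b and Nlrp14, genes of a branch best known from germ cells, had fold changes between -0.24 and 0.03, and Nlrc4, the flagellin and secretion system inflammasome, Nlrp10 and Nlrp4a were not tested. All 6 of Nlrp4a, Nlrp4b, Nlrp4e, Nlrp9b, Nlrp10 and Nlrp14 had their highest value of 8 in negative replicate 4, where they summed to 24.3 RPKM, against 3.13 to 11.7 RPKM in the other libraries. This library had the lowest depth. Among all genes tested with a mean under 5 RPKM, 60.9% also had their highest value of 8 there, so the 6 genes moved as most low genes did. Of the 58 receptor genes tested 15 (25.9%) did, against 26.4% of all genes tested.

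Inhibitory and activating members were counted side by side. Of 10 genes for receptors with an ITIM-type tail 5 were higher, and 8 with the block, at a median fold change of 1.84. Of 13 genes for receptors that signal through ITAM adaptors or a single such motif 6 were higher, and 9 with the block, at a median of 2.04. Cd300e, called higher, was not on either list. The difference between the 2 classes was not tested.

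Differences were larger in replicates 1 and 2, the deeper pair, than in replicates 3 and 4. That order held for 50 of the 58 genes tested and for 14 of the 18 called. The median fold change was 2.09 in replicates 1 and 2, over the 53 genes that passed the filter in these alone. In replicates 3 and 4 it was 0.62, over all 58, so the 2 medians rest on unlike sets of genes. For all genes tested the medians were -0.10 and -0.15. By pool, over the 58 receptor genes, the median was 1.88, 1.52, 1.16 and 0.10 for pools 1 to 4. Cd209a differed by 5.59 and 3.41 in the 2 sets, Tlr13 by 4.06 and 0.97, and Siglece by 2.62 and 1.12. The exceptions among the called genes were Clec4a3, at 3.18 and 3.86, Clec12a, at 2.81 and 3.56, Clec4a2, at 2.11 and 2.63, and Pilrb1, at 2.26 and 3.00. All 18 called genes were above 0 in both sets, by at least 2.10 in the first and 1.12 in the second. Fitted alone, replicates 1 and 2 gave 36 of 53 receptor genes higher, against 879 of all 10831 genes tested there. Replicates 3 and 4 gave 12 of 62, against 286 of 12935, so fewer genes of the whole table were called there as well. The labels name no batch for these sets, and whether depth or another feature of the pools goes with the size of the difference was not tested.

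**Figure D5:**
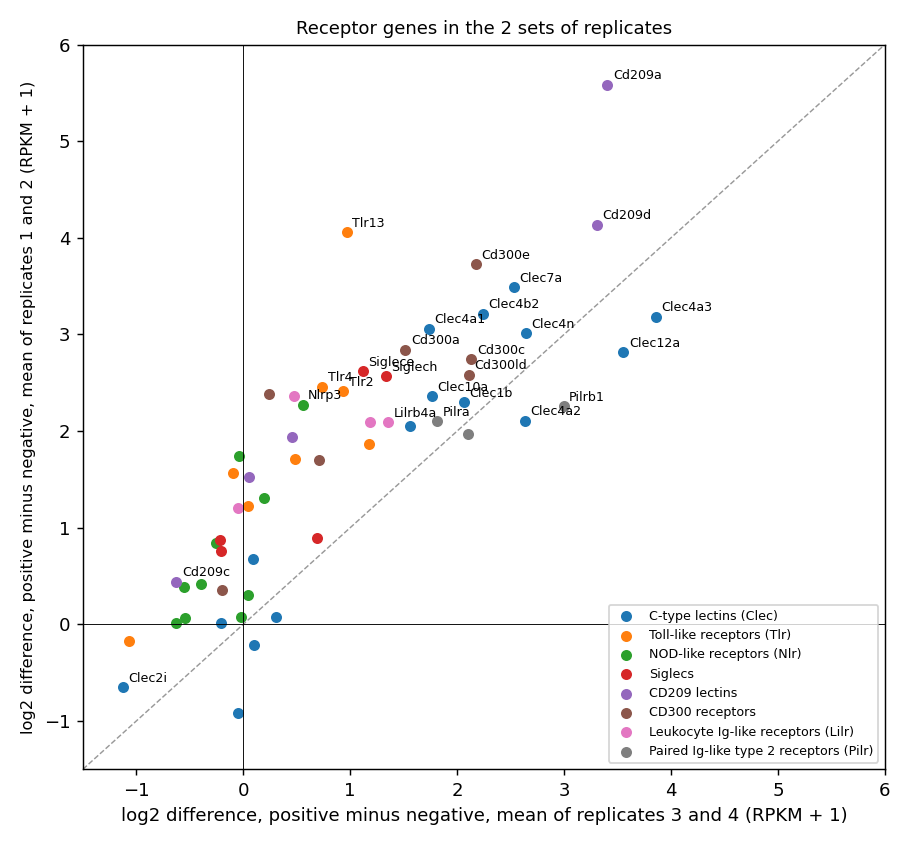
Fold change of each of the 58 receptor genes tested in replicates 3 and 4 (x axis) against replicates 1 and 2 (y axis), as mean log2 difference of RPKM + 1, coloured by family, with the dashed line at equal values. Most points lie above the line (50 of 58), and Clec4a3, Clec12a, Clec4a2 and Pilrb1 are the called genes below it.

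Genes that work with these receptors were read from 6 lists of adaptors, kinases, phosphatases and partners, of which 84 genes were tested. In all 16 were higher (19.0%, against 3.03% of all genes tested) and 0 lower (against 0.268%), and at an unadjusted p under 0.05 limma had 29 higher and 3 lower. Fcgr2b, the gene of the receptor used for the sort, is 1 of the 16 and is no independent result. With the block 29 were higher (34.5%, against 7.22%) and 6 lower (7.14%, against 3.85%). The same shares of all genes tested apply to the counts of each list below. Leaving out 1 library gave between 8 calls, without negative replicate 3, and 18. Over all genes tested such fits had 181 to 574 higher.

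Among partners, chaperones and proteases of Toll-like receptors 5 of 14 were higher, and 10 with the block. Cd36, which hands lipids to TLR2 with TLR6, was at 89.3, 131, 38.3 and 23.9 RPKM in positive and 2.49, 8.21, 4.83 and 2.81 RPKM in negative libraries. Ly86, the partner of the TLR4 relative CD180, was at 125, 147, 206 and 249 against 7.60, 51.6, 11.9 and 21.3 RPKM, and Lgmn, a protease of endosomes, at 61.8, 97.9, 29.8 and 39.4 against 3.44, 14.7, 5.54 and 8.58 RPKM. For each of these the groups were apart, and their fold changes were 3.50, 3.21 and 2.70 (limma adjusted p = 0.00305, 0.00505 and 0.00695). Unc93b1, the escort of endosomal Toll-like receptors, and Cd14, the lipopolysaccharide carrier, were the other 2 called, and neither call held without negative replicate 3 (adjusted p = 0.0820 and 0.106). Of 20 adaptors and kinases of the pathway only Irf5, a transcription factor downstream of these receptors, was called (5%, against 3.03% of all genes). The block changed that to 1 higher (5%, against 7.22%) and 2 lower (10%, against 3.85%). Irf5 was at 107, 187, 80.1 and 96.6 RPKM in positive and 9.11, 18.1, 6.92 and 11.2 RPKM in negative libraries, a fold change of 3.27 (SE 0.39, limma adjusted p = 0.000810). Myd88, the shared adaptor, was at 77.8 ± 36.8 and 71.5 ± 28.1 RPKM (SD, n = 4 each) and was not called.

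Of 15 genes of ITAM-coupled signalling 4 were higher, and 9 with the block. Lyn, a kinase of myeloid cells and B cells, was at 93.8, 134, 34.7 and 44.1 against 7.06, 25.3, 3.39 and 6.89 RPKM. Plcg2, a phospholipase that T cells largely lack, was at 32.2, 64.9, 14.3 and 22.4 against 6.79, 9.26, 3.41 and 8.14 RPKM. Their fold changes were 2.86 and 1.98 (limma adjusted p = 0.0156 and 0.0324), and both calls were lost without negative replicate 3, that of Plcg2 also without negative replicate 1 or 2 or positive replicate 1 or 2. The adaptor gene Fcer1g was also called, at 328, 346, 1144 and 1809.9 RPKM in positive libraries and 26.6, 167, 66.9 and 180.5 RPKM in negative ones, and lost its call in 5 of the fits that left out 1 library (adjusted p up to 0.151). Its 2 highest values stood in positive replicates 3 and 4, where the basophil and mast cell markers were also highest. Hcst of the same list was higher in replicates 3 and 4 of both groups. It was at 279, 121, 1328 and 1526 RPKM in positive and 374, 458, 1171 and 1824 RPKM in negative libraries. What goes with this order of the replicates was not tested.

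Of 11 phosphatases and inhibitory receptors that carry or bind ITIM motifs 3 were higher, and 5 with the block, which also called 2 lower. Fcgr2b, the gene of the sorted receptor itself, was at 69.9, 55.2, 39.1 and 29.6 RPKM in positive and 3.19, 4.82, 1.82 and 4.75 RPKM in negative libraries, so the transcript followed the sort. It differed by 3.40 (SE 0.36, limma adjusted p = 0.000441). Pirb, an inhibitory relative of the Lilr receptors, and Sirpa, the receptor for CD47, differed by 3.01 and 2.98 (limma adjusted p = 0.0229 and 0.0137). Both calls were lost without negative replicate 3, and that of Pirb also without negative replicate 1 or positive replicate 1 or 2. The phosphatase gene Ptpn6, used by many of these receptors and by T cells, was at 189 ± 102 and 234 ± 97.6 RPKM and was not called.

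Inflammasome genes had 2 of 13 higher, and 3 with the block. Il18 and Il1b, the genes of the cytokines that inflammasomes release, were at 33.1, 34.2, 62.8 and 58.6 against 2.75, 9.19, 9.77 and 6.52 RPKM and at 47.02, 71.7, 49.9 and 54.1 against 3.10, 38.02, 5.94 and 5.03 RPKM. Both differed by 2.63 (limma adjusted p = 0.00344 and 0.0298), and the call of Il1b was lost in 5 of the fits that left out 1 library (adjusted p up to 0.118). Pycard, the adaptor of these complexes, was at 102 ± 52.2 and 114 ± 33.6 RPKM without a call. Of 11 genes of NOD and nucleic acid sensing in the cytosol only Ciita was higher (9.09%, against 3.03% of all genes tested). This gene of the class II transactivator was at 34.5, 53.8, 15.03 and 17.6 RPKM against 1.38, 1.68, 0.538 and 3.24 RPKM. Its fold change was 3.44 (limma adjusted p = 0.00116). Ciita is a NOD-like receptor by structure and controls antigen presentation instead of sensing microbes. With the block 1 gene of this list was higher (9.09%, against 7.22%) and 2 were lower (18.2%, against 3.85%).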

How the data were processed

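RNA of 1000 sorted cells per library was amplified with SMART-seq v4 and made into libraries with NexteraXT, per the labels' protocols. The authors deposited 1 RPKM value per gene and library, per the file headers. The submitters' processing notes list TopHat2 (no version) and the build mm9. The counting of reads per gene and its use of strand are not given in the sources used here. In the deposited table each gene has 3 RPM or more, computed from RPKM and exon length, in 4 or more libraries. Of its Entrez IDs 13187 matched the reference names and 17 did not, and 21 symbols turned into dates were restored.

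Steps of RPKM that 1 read is worth gave depths of 16470000, 22010000, 6510000 and 5310000 reads for positive replicates 1 to 4 and 17950000, 16970000, 7360000 and 3060000 reads for negative replicates 1 to 4, with 100% of the 76 to 459 low values examined per library whole within 0.1 reads. Amplified reads are not independent molecules.

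RPKM is not a count, so limma (version 3.58.1, R 4.3.3; lmFit, eBayes with a trend) was run two-sided on log2(RPKM + 1) with the group as its only term, over 11946 genes with 1 RPKM or more in at least 4 libraries, with Benjamini-Hochberg adjustment. Steps were tested on simulated data. Replicate numbers mark a shared pool, as the series design text states, and within pools 1 to 4 the libraries' deviations from their group means had correlations of 0.70, 0.41, 0.56 and 0.68. The fit with the pool as a block is printed where it changes a call.

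Alternatives were other pseudocounts, filters and scalings, no trend, the replicate block, replicate sets and leaving out each library. Values per library are given for members called in either fit, up to 30 by smallest p, every member called lower, and the 3 most abundant members called in neither; for other lists, up to 3 called genes. The values of 1 gene that this rule took are not reported here. The members, the lists and this rule were chosen with earlier results of these data known, and the sequences after their values were seen. RefSeq promoter windows of GRCm38.p6 were searched on both strands. No protein sequence was used here.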

Additional observations from a re-analysis of the deposited data

Results flagged for a closer look

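A single library stood apart from the other 3 of its group, by a gap large against the range of the group (Dixon's test), in 7 of the 116 groups of 4 values checked, where chance gives about 1 in 20, or 5.8. Negative replicate 4 was the high one in 3 of them: Nlrp3 at 4.23 RPKM (others 0.230 to 0.530), Nlrp1b at 3.29 RPKM (others 0.173 to 0.315) and Cd209e at 4.06 RPKM (others 0.597 to 0.932). Positive replicate 2 was apart for Nlrp3, at 8.19 RPKM (others 3.12 to 3.39), for Pilrb2, at 20.7 RPKM (others 14.4 to 15.2), and, as the low one, for Nlrp4e, at 1.22 RPKM (others 4.12 to 4.86). Nlrc3 was high in negative replicate 1, at 42.6 RPKM (others 9.61 to 11.5).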

How the results depend on the processing

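The 18 receptor genes higher became 32 with the replicate block, 33 with libraries scaled to 13 core T cell genes and 36 with replicates 1 and 2 alone, and leaving out 1 library gave 10 to 22. Other pseudocounts, filters, scalings, no trend and replicates 3 and 4 alone gave 12 to 20. Calls over the whole table moved as well. The 362 genes higher became 863 with the block, 978 with core T cell scaling and 879 with replicates 1 and 2 alone. They were 181 to 574 without 1 library and 220 to 414 in the other settings. The 0 lower became 1 with the replicate block, which ended no call of a named gene. The median of 1.36 became 0.52 with replicates 3 and 4 alone, over the 62 receptor genes in that fit. Pathway genes higher, 16, became 29 with the replicate block, 10 with a common sum, 31 with core T cell scaling and 30 with replicates 1 and 2 alone, with 8 to 18 over fits without 1 library, and those lower, 0, became 6 with the replicate block and 1 with replicates 1 and 2 alone. Core T cell scaling moved the median of all genes from -0.11 to 0.67 and turned Clec2i to 0.039, Tlr1 to 0.28, Nlrc3 to 0.58 and Cd209c to 0.80. With replicates 1 and 2 alone Nlrc3 was at 0.011 and Cd209c at 0.44. Leaving out 1 library gave -0.74 to 0.18 for Nlrc3, above 0 only without negative replicate 1, and -0.61 to 0.56 for Cd209c, above 0 without positive replicate 2 (0.43) or negative replicate 3 (0.16) or 4. The causes were not tested. Negative replicate 4 had the lowest depth, and 1 read is worth 0.327 RPM there, the largest step of the 8 libraries. Genes with a mean under 5 RPKM had a median of 4.37 RPKM in it, against 1.35 to 2.71 RPKM in the other libraries. Whether depth goes with this was not tested.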
